A study of Mus musculus with 4 samples.

Results

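Of the 793 peaks listed for Trim71 (R783H) CLIP in mouse embryonic stem cells, 200 lay in introns, in exons with no coding or UTR class, or outside named genes. They were taken from the location column of the authors' deposited table, where an empty location was read as intergenic. In these locations, 46 more peaks were left out by name, because the table assigned them to Gas5, to Snhg1 or to a gene whose symbol begins with Snor or Mir. The members comprised 117 intronic peaks, 53 unclassified-exon peaks and 30 intergenic peaks. They made up 25.2% of the list (95% Clopper-Pearson interval 22.2 to 28.4%) and held 74790 CLIP reads, 30.6% of the CLIP reads in listed peaks.

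All cells were FLAG-Trim71 (R783H) mouse embryonic stem cells of the ES-E14TG2a background, grown on gelatin in 2i medium with Lif. In HITS-CLIP, protein is crosslinked to RNA in the cell and pulled down, and the RNA fragments that come with it are sequenced. There were 2 CLIP libraries made with the FLAG-M2 antibody, numbered 1 and 2, and 2 input libraries, named A and B. Both kinds came from cells with the tagged mutant protein, and neither unmodified Trim71 nor untagged cells are among the labelled samples. The table gave 1 RPM value and 1 fold change per peak for the series as a whole, so no spread between libraries could be computed. All intervals below cover counting error only, and PCR copies are not independent molecules. Of 8 embryonic stem cell markers, 3 were named in the list (Sox2, Zfp42 and Dppa5a), against 0 of 4 fibroblast markers. Nanog was not named, though a peak listed as intergenic lies within its span. A gene with no listed peak has no level in these data.

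Trim71 (LIN-41) belongs to the TRIM-NHL proteins, binds RNA, is abundant in embryonic stem cells and represses target mRNAs, mostly through their 3′ UTRs. Introns carry other RNAs as well: most mammalian small nucleolar RNAs (snoRNAs), which guide the chemical modification of ribosomal RNA, and many microRNAs are cut out of the introns of host genes, and ribosomal protein genes are frequent snoRNA hosts. A label of intron or unclassified exon can therefore mean pre-mRNA, a spliced noncoding transcript or a small RNA processed out of it.

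The sequences under 5 peaks on microRNA hairpins are shown because they place each peak along its hairpin. The precursor holds the same bases as the mature microRNA and read ends were not examined. Reads of the 2 forms therefore cannot be told apart. Each is the RefSeq hairpin of GRCm38.p6, written 5′ to 3′, with the bases under the peak in capitals.

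Mir677: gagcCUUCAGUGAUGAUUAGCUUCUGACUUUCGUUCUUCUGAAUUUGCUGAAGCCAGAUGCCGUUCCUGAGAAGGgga
Mir101a: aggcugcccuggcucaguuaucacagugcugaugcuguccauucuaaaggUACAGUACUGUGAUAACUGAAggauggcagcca
Mir16-2: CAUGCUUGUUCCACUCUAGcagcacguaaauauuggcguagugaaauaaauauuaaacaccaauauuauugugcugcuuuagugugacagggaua
Mir423: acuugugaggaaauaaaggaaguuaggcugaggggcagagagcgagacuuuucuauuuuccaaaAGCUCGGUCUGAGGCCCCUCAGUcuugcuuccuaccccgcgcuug
Mir5099: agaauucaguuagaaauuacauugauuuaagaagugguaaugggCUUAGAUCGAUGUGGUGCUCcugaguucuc

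The first 4 peaks are unclassified-exon members and the Mir5099 peak is intergenic. With deposited starts counted from 0, the peak in the host E130102H24Rik at chr4:101346957-101346977 (minus strand) has the bounds of miR-101a-3p. In Ccdc55, whose current name is Nsrp1, the peak at chr11:77078086-77078108 (minus strand) likewise has the bounds of miR-423-3p. Both peaks are among the 6 exact matches from which that way of counting was chosen, so they are no separate check of it. The Mir677 peak in Atp5b, chr10:128085290-128085360 (plus strand), runs over bases 5 to 75 of the 78-base hairpin and so takes in both arms and the loop. The Smc4 peak, chr3:69009856-69009920 (plus strand), begins 20 bases after the Mir15b hairpin, covers the 46 bases before the Mir16-2 hairpin and ends on its base 19. It therefore lies mostly between the 2 hairpins and reaches only 3 bases of miR-16-5p.

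The mature microRNAs that the first 4 hairpins give are shown with the seed, bases 2 to 8, in capitals, where the peak reached them.

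miR-677-5p: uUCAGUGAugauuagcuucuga
miR-677-3p: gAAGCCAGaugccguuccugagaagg
miR-101a-3p: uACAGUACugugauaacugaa
miR-16-5p: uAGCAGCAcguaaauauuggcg
miR-423-3p: aGCUCGGUcugaggccccucagu

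No seed is shared among them. Mir5099 has no mature entry in the table used, and its peak, chr12:36816249-36816268 (plus strand), covers bases 45 to 64 of 74. This intergenic peak held 1298 CLIP and 301 input reads, more CLIP reads than any other intergenic member, with a log2 fold change of CLIP over input of 5.01 (4.83 to 5.20). The Mir677 peak held 306 CLIP and 111 input reads, a log2 fold change of 4.36. The 2 peaks that coincide with a mature strand differed from each other: miR-101a-3p had 139 CLIP and 129 input reads, a log2 fold change of 3.01 (2.65 to 3.37), and miR-423-3p had 43 and 12, a log2 fold change of 4.74 (3.79 to 5.80). The Smc4 peak had 50 CLIP and 16 input reads, a log2 fold change of 4.54. Intronic members lay on Mir151 in Ptk2 (83 CLIP and 55 input reads) and on Mir378a in Ppargc1b (74 and 56), at log2 fold changes of 3.50 and 3.30.

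**Figure D1:**
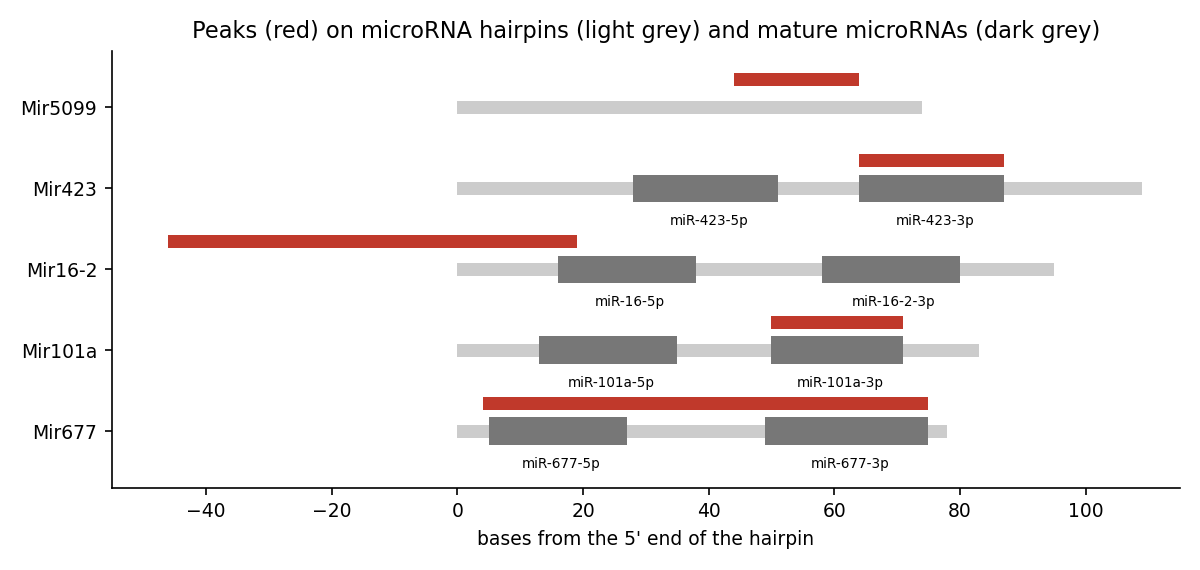
Position of each member peak on its microRNA hairpin, in bases from the hairpin's 5′ end. The Mir101a and Mir423 peaks span 1 mature strand each, the Mir677 peak spans nearly the whole hairpin, and the Mir16-2 peak lies mostly before the hairpin.

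Dleu2, a long noncoding RNA that hosts the miR-15a and miR-16-1 hairpins, had 3 intronic peaks. The nearest ones began 59 and 138 bases after the Mir16-1 hairpin on the minus strand and held 199 CLIP against 56 input reads and 111 against 21, at log2 fold changes of 4.73 and 5.30. The third held 40 CLIP and 5 input reads, at 5.90 (interval up to 7.60). The nearest Dleu2 peaks and the Smc4 peak thus lie beside hairpins of the same microRNA family, while the third Dleu2 peak lies further away. None of the 3 Dleu2 pairs passed the pair test described below.

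The unit of the values is as follows. RPM is reads scaled to a fixed library total, and 1 RPM was worth 11 CLIP reads, which gives whole CLIP read numbers for all peaks. Input reads were recovered from the fold change. Each peak's CLIP and input reads were set against the enrichment of the median listed peak, a log2 fold change of 4.20, with an exact two-sided binomial test and Benjamini-Hochberg adjustment over the 793 peaks. A peak called above or below has an adjusted p under 0.05. In the whole list, 28.6% of peaks were called above and 32.7% below.

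Intronic peaks had the highest median enrichment of the 3 locations, while over summed reads the log2 fold change was 4.27 for introns, 4.32 for unclassified exons and 3.84 for intergenic peaks. Their log2 fold change ranged from 2.69 to 7.69 with a median of 5.02 (quartiles 4.21 and 5.77), and 65 of 117 (55.6%) were called above the list median against 28.6% of the list, 19 (16.2%) below. Unclassified-exon peaks ranged from 2.21 to 5.87 with a median of 4.40, with 17 of 53 (32.1%) above and 14 (26.4%) below, close to the background. Intergenic peaks ranged from 2.08 to 6.27 with a median of 3.78, with 9 of 30 above and 14 (46.7%) below. The 3′ UTR peaks had a median of 4.01 and 21.0% above, coding peaks 4.07 and 19.6%, and the 21 5′ UTR peaks 4.71 and 47.6%. Under Bonferroni adjustment, 33 intronic, 10 unclassified-exon and 4 intergenic members were called above, beside 14.5% of the whole list. Peaks are not replicates, and no test compared the locations.

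The intronic peaks also had the fewest input reads, a median of 23.0 against 42.0 in the list. Of 32 members with 5 to 9 input reads, 27 were intronic, and their fold changes are the least precise. Without peaks under 10 input reads, 45 of 90 intronic members were called above, beside 25.5% of the listed peaks that pass this limit. The 95% interval reached a median of 0.73 to either side for introns, 0.39 for unclassified exons and 0.48 for intergenic peaks. The part of low input reads in the intronic values was not tested beyond this.

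**Figure D2:**
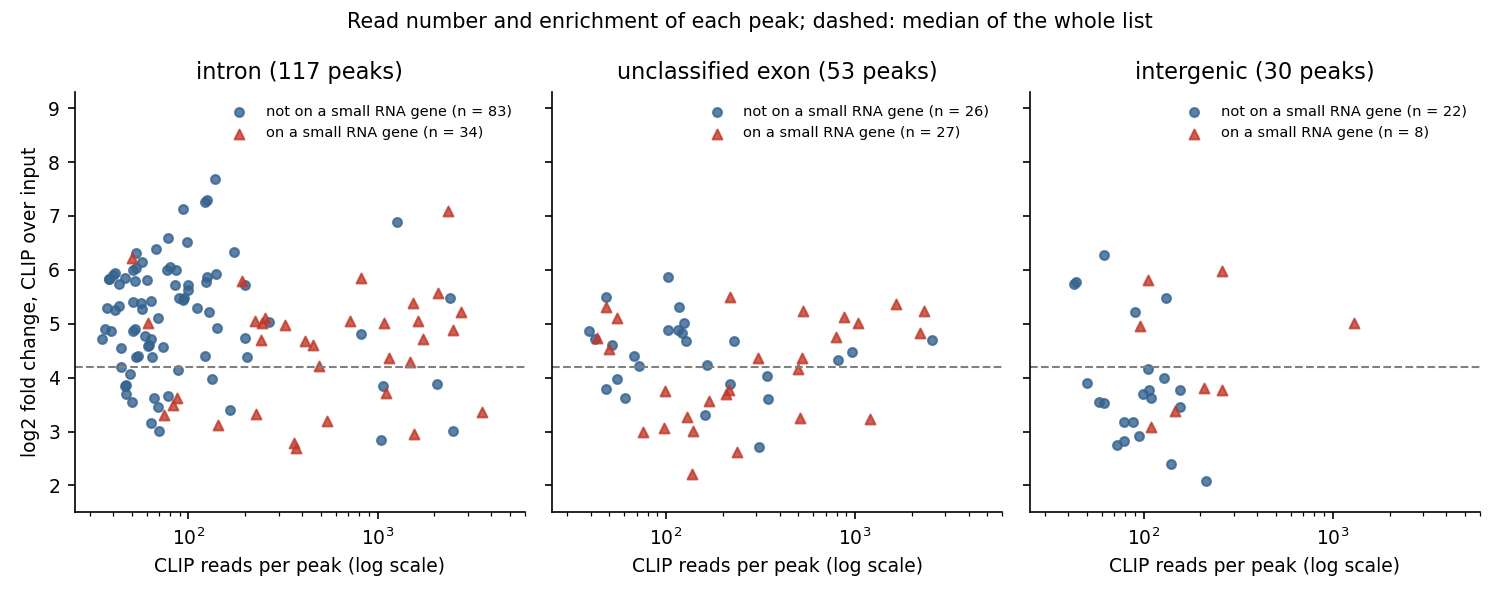
Log2 fold change of CLIP over input against CLIP reads (log axis) for the 200 members, split into introns, unclassified exons and intergenic peaks, with red triangles on small RNA genes and blue circles off them. In introns, most circles lie at fewer reads than the triangles, with medians of 69 and 471 CLIP reads, and the dashed line is the median of the list, 4.20.

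Small RNA genes accounted for most of the reads. Annotated snoRNA, microRNA, tRNA or snRNA genes overlapped 69 members (34.5%), and these held 47836 CLIP reads, 64.0% of the reads in members. Among the other 593 listed peaks, which include the genes named Snor and Mir, 55 (9.27%) did so, and these held 61.9% of the CLIP reads there. The share of reads was thus close in members and other peaks, while the share of peaks was not. The overlap was found for 34 intronic peaks (29.1%), 27 unclassified-exon peaks (50.9%) and 8 intergenic peaks (26.7%). Of the 69, by RefSeq type, 54 were on snoRNAs, 7 on microRNAs, 6 on tRNAs and 2 on snRNAs. The snRNA type here includes the gene named Snord73b. The median peak covered 45.9% of the small RNA gene (quartiles 21.1 and 76.7%). The 20 members with the most CLIP reads held 54.5% of member reads, and 15 of them were on a small RNA gene.

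Both introns and exons had more reads on small RNA genes than off them. On them, intronic peaks had a median of 471 CLIP and 165 input reads and a median log2 fold change of 4.71. Off them, the 83 intronic peaks in 63 genes had 69 CLIP and 16 input reads and a median of 5.27. Called above were 19 of 34 (55.9%) and 46 of 83 (55.4%), and called below were 11 (32.4%) and 8 (9.64%). Unclassified-exon peaks had a median log2 fold change of 4.36 on small RNA genes and 4.53 off them.

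Of the gene families listed by symbol, ribosomal protein genes held the most reads. Of 50 listed genes of this kind, 13 had members, beside 112 of all 544 listed genes (20.6%). They had 24 peaks (21 on small RNA genes) and 29994 CLIP reads, 40.1% of the reads in members. Their median log2 fold change was 4.59, with 13 of 24 peaks above and 7 below. In the whole list, 28.6% were above and 32.7% below, and among all members on small RNA genes 46.4% and 37.7%. Rpl21 had a peak over 98.6% of LOC115490268 with 2503 CLIP and 634 input reads, at 4.88. Rpsa, over 4.62% of Snora62, had the lowest value of the exon peaks, 2.21, with 138 CLIP and 222 input reads.

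Other hosts of snoRNAs differed widely. The intronic peak in 1110038B12Rik covered 98.4% of LOC115488834 with 2352 CLIP and 129 input reads, a log2 fold change of 7.09 (up to 7.36), the highest of the intronic members with over 500 CLIP reads. Among genes of translation factors, Eef2 had 4.68 and Eif4a1 2.69, the lowest of all intronic members. Taf1d, a subunit of the RNA polymerase I factor SL1, had 1204 CLIP and 952 input reads on an exon peak, at 3.24, and 3.72 on an intronic one. Of the Snhg genes left in the set, Snhg12 had 869 CLIP and 185 input reads over Snord99 at 5.13, while Snhg3 and Snhg4 had 3.88 and 3.57. In all, 64 members lay in 40 genes whose span holds a snoRNA gene, with 65.7% of member reads.

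Where several peaks lay on 1 snoRNA, enrichment differed along it in the 4 described here. Positions are counted from the 5′ end along the strand of the peak. A read that reaches several peaks of 1 snoRNA may be counted in each, while the test below treats their reads as independent. On LOC115489588 in Rpl7a, bases 3 to 38 had 5.38 and bases 62 to 65 had 2.96 (Fisher's exact test on CLIP and input reads, adjusted p = 2.60e-131 over 411 pairs of peaks of one gene). Gm26457 in Eef1b2, an elongation factor subunit, had 5.79, 5.11 and 4.69 at bases 5 to 14, 31 to 42 and 60 to 72, and its ends differed (adjusted exact p = 0.00430). The order ran the other way on Gm23301 in Rpl17, with 4.83 at bases 1 to 7 and 5.24 at bases 25 to 64 (adjusted exact p = 1.16e-04), and on Snord19 in Gnl3, with 3.77 at its 5′ end and 5.05 at its 3′ end (adjusted exact p = 9.87e-06). Of these 4 snoRNAs, the 5′ part was thus higher on 2 and lower on 2.

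**Figure D3:**
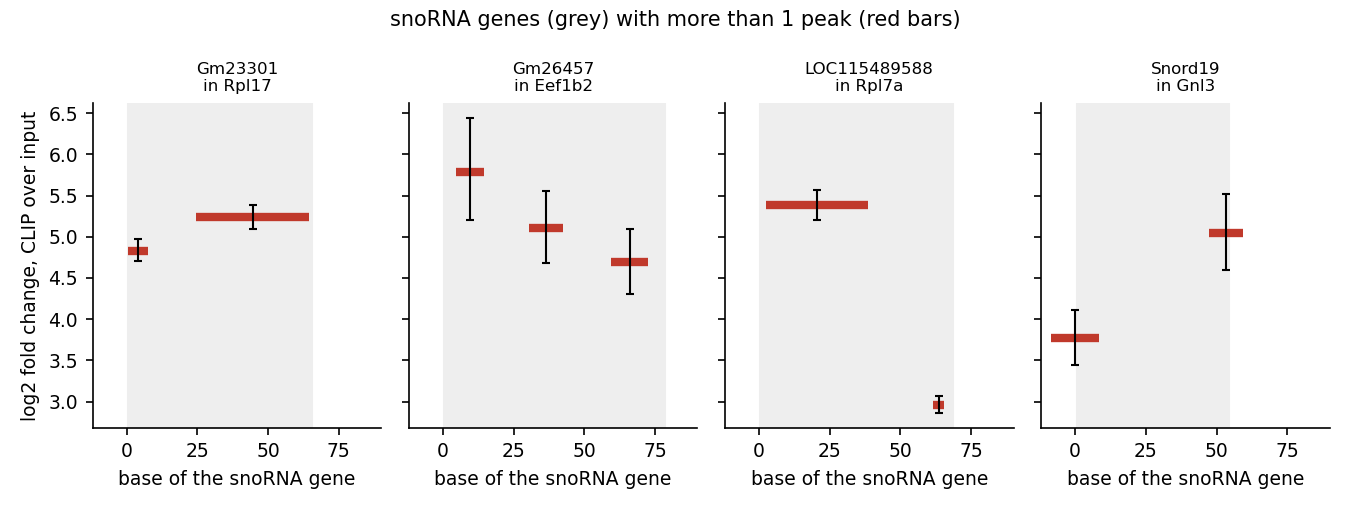
Log2 fold change with 95% counting interval along 4 snoRNA genes that carry several member peaks, in bases from the snoRNA's 5′ end. The 5′ peak is higher on LOC115489588 and Gm26457 and lower on Gm23301 and Snord19.

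Off small RNA genes, 7 intronic peaks still held 500 or more CLIP reads, and 3 of these lay within 50 bases of a small RNA gene. The other 4 were in Cdk8, Snrpb, 2610528E23Rik and 5430416N02Rik. Snrpb, which encodes a core Sm protein of the spliceosome, had 2426 CLIP and 405 input reads at chr2:130172908-130172979, a log2 fold change of 5.48 (up to 5.64), and was called above. Cdk8, a kinase of the Mediator complex, had 2518 CLIP and 2327 input reads at chr5:146261312-146261337, a log2 fold change of 3.02 (2.93 to 3.10), and was called below. 2610528E23Rik (3.84) and 5430416N02Rik (2.85) were also called below. All 4 had more input reads than the upper quartile of intronic members, 106, and Snrpb was the one with a ratio above the list median.

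The 4 largest intronic fold changes came from peaks with 5 or 6 input reads, and the next, in 1110038B12Rik (7.09) and Nop56 (6.88), from peaks with 129 and 80. Snx2, a sorting nexin of the endosome, had 138 CLIP and 5 input reads, a log2 fold change of 7.69. Unc13b, a priming factor of synaptic vesicles, had 126 and 6, at 7.29. Cspp1, a centrosome and spindle pole protein, had 94 and 5, at 7.13. Ogt, which adds O-linked N-acetylglucosamine to proteins, had a peak of 122 CLIP and 6 input reads at 7.25 and a second of 63 and 18 at 4.71. Mgea5, now Oga, the enzyme that removes the same sugar, had 53 and 5 at 6.31. The intervals are wide at these input reads, with an upper bound of 9.33 for Snx2.

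Several other intronic hosts encode RNA-binding or RNA-processing proteins. Cpsf6, a subunit of a cleavage and polyadenylation factor, had intronic peaks of 6.34 (174 CLIP and 16 input reads) and 4.78. Dgcr8, the partner of Drosha in microRNA processing, had 77 CLIP and 9 input reads, and was called above. Nop58, a core protein of box C/D snoRNPs, had 5.81 (60 CLIP and 8 input reads). Its other intronic peak, at 6.22 (50 and 5), lay on the snoRNA gene Gm26287. Pspc1, a paraspeckle protein, had 6 intronic peaks between 4.90 and 6.52, with 5 called above. Taf15 and Rbm26 had 5.74 and 5.83, on only 6 and 5 input reads, and were called above. Ptbp2 (5.33), Rbm25 (5.30), Ewsr1 (4.87) and Fxr1 (4.38) were not called, and Rbm39, with 63 CLIP and 53 input reads at 3.15, was called below. Srsf2 (4.15), Hnrnpu (4.55) and Hnrnph2 (4.19) were near the list median and not called. This grouping was made after the values were seen. By the fixed lists, 2 of 5 listed SR genes, 3 of 5 listed hnRNP genes and 0 of 3 listed DEAD or DEAH box genes had members, beside 112 of all 544 listed genes (20.6%), and these lists are too short to read a difference from.

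Among genes of the stem cell, Zfp42 (Rex1) had an intronic peak with 35 CLIP and 10 input reads at 4.71, which was not called. By the authors' gene names, Zfp42 was the 1 of 8 listed pluripotency genes with a member. Nanog is not among these names, but an intergenic member described below lies within its span. Along their genes, the median intronic member off small RNA genes lay at 53.0% of the span (quartiles 34.4 and 70.6%), with 47 of 83 past its middle. All 128 members whose gene has a strand in the table used lay on that strand. How the authors assigned gene names is not given, and a strand-aware assignment would fix this count in advance.

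One intronic member overlapped a RefSeq promoter window, and its sequence is shown. In Zfp57, a zinc finger protein that maintains imprints, the 39-base peak chr17:37003423-37003461 (plus strand, GRCm38.p6) began 243 bases before a RefSeq start. The peak lay 23.8% along the 9567-base RefSeq span of the gene, so it may still be intronic in a transcript that starts earlier. It had 78 CLIP and 46 input reads, a log2 fold change of 3.66, and was not called. Capitals mark the bases under the peak, with 41.0% GC.

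Zfp57 peak: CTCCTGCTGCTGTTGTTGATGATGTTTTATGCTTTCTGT

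The unclassified-exon members included long noncoding RNAs and other noncoding transcripts. Malat1, a nuclear noncoding RNA of nuclear speckles, had 4 peaks. The strongest, chr19:5797235-5797273, had 2545 CLIP and 732 input reads at 4.70 and was called above, and the weakest had 310 and 353 at 2.71 and was called below. The vault RNA Vaultrc5 had 230 CLIP and 67 input reads at 4.68 and was called above. Rnu73b, over 73.2% of Snord73b, had 217 and 36 at 5.49. Rn45s, the ribosomal RNA precursor, had 3 peaks from 3.30 to 4.24, 2 of them called below. The precursor is present in many near-identical copies, so its reads cannot be assigned to 1 locus.

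Unclassified exons of protein-coding genes off small RNAs included splicing genes. Ccnl2, a cyclin tied to splicing, had 3 such peaks of 5.01, 4.21 and 5.87, the last with 102 CLIP and 13 input reads. Hnrnph1 had 3 peaks of 5.31, 3.62 and 4.71. Srsf5 had 48 CLIP and 8 input reads at 5.49. Of these, Ccnl2 had 2 peaks called above, and Hnrnph1 and Srsf5 had 1 each. Among all 26 unclassified-exon members off small RNA genes, 8 (30.8%) were called above, near the 28.6% of the list.

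Genes with several members allowed a comparison within 1 host gene. Members on different small RNA genes of a host can come from separate RNAs, so the RNA and its input level were not held fixed. Peaks a few bases apart may share reads, which the test treats as independent. Of 411 pairs of peaks of one gene in the list, 240 (58.4%) differed in log2 fold change. Among members, 55 of 111 pairs (49.5%) in 29 genes did, and 23 genes had at least 1 such pair. Under Bonferroni adjustment, 30 member pairs remained past the threshold. In 13 genes, members were split between intron and unclassified exon.

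The largest difference was in Nop56. This gene of a box C/D snoRNP core protein had 1266 CLIP and 80 input reads at 6.88 beside Snord110 and 143 and 122 at 3.13 on a second snoRNA (difference 3.75, adjusted exact p = 2.05e-53), with an exon peak on Snord110 at 5.37. Arglu1, a modulator of splicing, had peaks of 5.77 and 3.01 (difference 2.76, adjusted exact p = 1.87e-10). The 2 Ogt peaks differed by 2.54 (adjusted exact p = 5.39e-04). In Sf3b3, a subunit of the spliceosome's SF3b complex, the intronic snoRNA peak had 5.02 and the exon one 2.62 (adjusted exact p = 1.56e-49). The Malat1 extremes differed by 1.98 (adjusted exact p = 8.11e-53).

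Smaller differences were found in other hosts. Ankrd10 had 5.21 and 3.46 (adjusted exact p = 4.82e-05), Zfp207, a spindle assembly protein, 5.72 and 3.87 (adjusted exact p = 2.96e-04), and Hnrnph1 5.31 and 3.62 (adjusted exact p = 5.44e-04). Slc25a36, a mitochondrial nucleotide carrier, had the most members, 8 peaks from 3.54 to 5.39 with 717 CLIP reads, and 11 of its 28 pairs differed. Of the 15 Pspc1 pairs, 1 did (adjusted exact p = 0.0489). Dleu2, Fbxo3, Gt(ROSA)26Sor, Luc7l2, Nop58 and Tnpo2 had no pair past the threshold, which with their read numbers does not show that their peaks are alike.

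**Figure D4:**
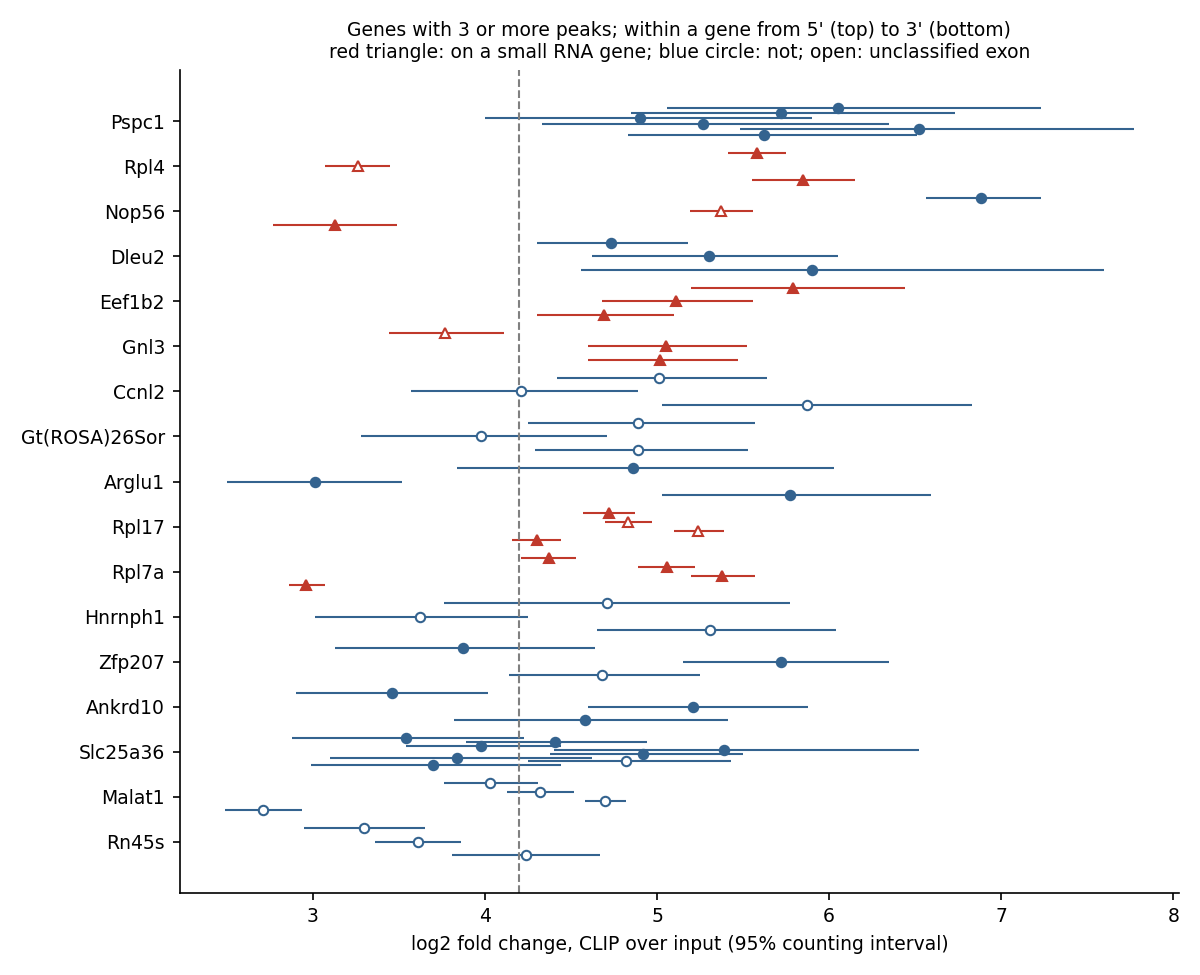
Log2 fold change with 95% counting interval of member peaks in the genes drawn, each with 3 or more members, as red triangles on a small RNA gene and blue circles off one, open for unclassified exons and filled for introns. Nop56, Arglu1 and Rpl7a spread widely, and the dashed line is the median of the list, 4.20.

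The 30 intergenic members fell into several RNA classes by RefSeq. Each peak was counted in 1 class only. They comprised 9 pseudogene peaks, 8 peaks otherwise within the span of a protein-coding gene, 5 on tRNAs and 2 on snoRNAs. The rest were 1 on a microRNA, 1 on 5S ribosomal RNA, 1 otherwise within a long noncoding RNA and 3 with no RefSeq gene. Some pseudogene, tRNA and snoRNA peaks also lay within the span of a protein-coding or long noncoding RNA gene. Together the 30 members held 4649 CLIP reads, 6.22% of member reads, of which Mir5099 gave 27.9%.

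The tRNA peaks split into high and low. An isoleucine tRNA (n-TIaat9) had 261 CLIP and 31 input reads at 5.97, and the arginine tRNA n-TRacg3 had 106 and 14 at 5.82. Those on n-TRcct1, n-TMcat12 and n-TRtct2 had 3.81, 3.38 and 3.08 and were called below. The leucine tRNA n-TLtaa3, in an intron of B230208H11Rik, had 715 CLIP and 161 input reads at 5.05. Of these 6 tRNAs, 3 carry arginine. tRNA genes are near-identical in families, so reads of 1 copy and another cannot be told apart.

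The 8 peaks classed by a protein-coding span lay on the strand of the gene where it is known, 7 of 8. The strand of Cnot7 was not in the table used. Peaks classed as pseudogene also lay within protein-coding spans: in Yipf1 on the opposite strand, and in Trpm4, whose strand is unknown. Nanog, a pluripotency transcription factor, had 128 CLIP and 60 input reads at 3.99, 61 bases before its annotated 3′ end. Ndc1, a nuclear pore protein, had peaks 256 and 60 bases before its 3′ end, at 6.27 (62 CLIP and 6 input reads) and 3.53 (62 and 40). Polr2a, the largest subunit of RNA polymerase II, had 95 and 94 at 2.92 and lay 288 bases before its end, and Pdgfa 44 and 6 at 5.78, 579 bases before it. The Tnpo1 and Myo3a peaks lay 2088 and 28402 bases before the end, at 3.55 and 5.22, and the Cnot7 peak had 3.62.

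Among the peaks with no RefSeq gene, chr9:114509364-114509402 and chr9:114507994-114508023 (both minus strand) lay 1866 and 3245 bases past the 3′ end of Trim71, on its strand. They had 139 CLIP and 198 input reads at 2.39, and 50 and 25 at 3.90. The second lay nearer to Ccr4, 2518 bases from that gene and also on its strand. The third, chr7:130834441-130834468 (plus strand), lay 8540 bases past Btbd16, with 155 and 105 at 3.46. Pseudogene peaks included Rpl14-ps1, with 215 CLIP and 381 input reads at 2.08, the lowest member of all, and Rpl38-ps2, with 131 and 22 at 5.47. These copy ribosomal protein mRNAs, so reads of the copy and of the parent gene cannot be told apart. Lncenc1, a long noncoding RNA of naive stem cells, had 99 and 57 at 3.70.

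**Figure D5:**
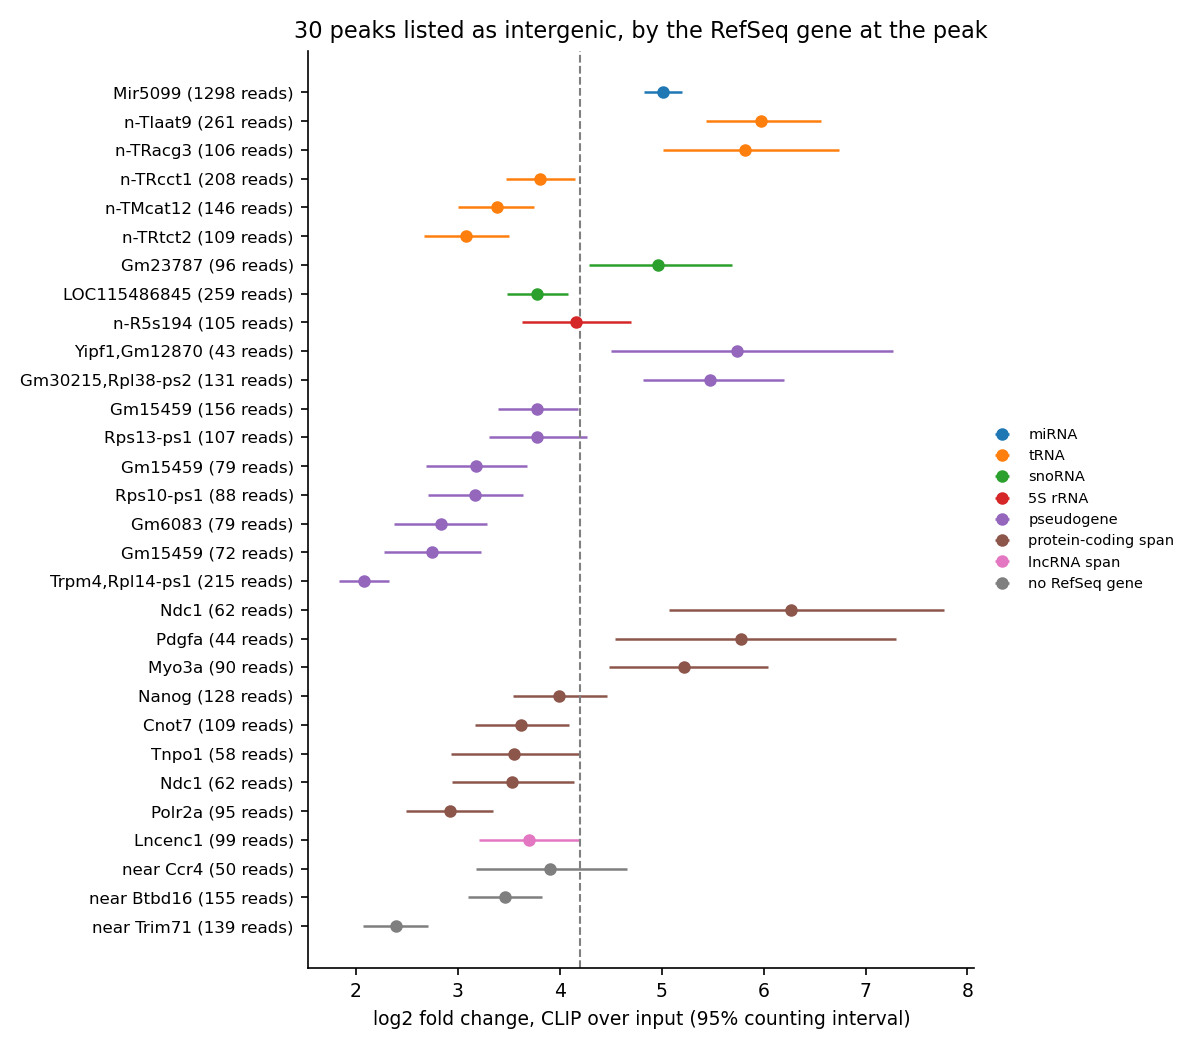
Log2 fold change with 95% counting interval of the 30 intergenic members, ordered within RNA classes, which the colours give; peaks with no RefSeq gene carry the name of the nearest gene. Pseudogene peaks lie mostly below the list median of 4.20, and the tRNA peaks lie on both sides of it.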

How the data were processed

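The data are 1 table of 793 peaks for 2 CLIP and 2 input libraries. Per the submitters' processing notes, CASAVA 1.4, cutadapt, HISAT2 2.1.0 and SAMtools were used with genome build mm10. The peak caller, its thresholds and the handling of replicates are not given in the sources used here. The authors deposited an RPM value per peak, and a fold change that was read as log2 from its values. RPM times 11 gave whole CLIP reads in 100% of peaks (11000000 in all), and a depth ratio of 7.47 gave whole input reads in 100% of 720 peaks scored, within 0.02 reads beyond rounding (82160000 in all). The value columns name no library and were read as pooled CLIP and pooled input, which no source used here states; on that reading, p-values compare those libraries, not the conditions. No per-sample columns were left out (0).

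Each peak was set against the list median by an exact binomial test, pairs of peaks of one gene were compared by Fisher's exact test, and Benjamini-Hochberg adjustment ran over all 793 peaks or 411 pairs. Tests were tried on simulated data. Deposited starts count from 0: of 11 peaks within 2 bases of a mature microRNA at both ends, 6 match exactly if so and 1 otherwise. Positions are printed counting from 1. Genes and sequences came from RefSeq tables of GRCm38.p6; among the members' 112 genes, 101 have a current symbol, 8 an older name and 3 no match. The gene table gives no strand, and strands came from the promoter table where it holds the gene.

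Named were the 6 members with the most CLIP reads and the 6 with the largest fold change per location, genes with 3 or more members, list members, differing pairs and intergenic peaks, some only by range or count; further examples were chosen after their values were seen. The members, lists and rules were chosen with earlier results of these data known. Some items that these rules name are not reported here. No genome was used, so motifs were not searched. Python 3.11.15, numpy 2.4.6, pandas 2.3.3, scipy 1.17.1 and matplotlib 3.10.9 were used.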

Additional observations from a re-analysis of the deposited data

How the results depend on the processing

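Over 13 results, 33 alternatives were run, and 27 kept their value within 1.5 times or within its spread. Bonferroni adjustment left 33 intronic members above the list median in place of 65, 10 unclassified-exon members in place of 17, 4 intergenic members in place of 9, and 30 differing pairs in place of 55. Among the 50% of listed peaks with the larger fold change, 32 unclassified-exon and 9 intergenic members were left. The table has 1 value per peak, so no library could be left out. No paired analysis was possible because the columns carry no replicate number. The motif alternative was not run, since no genome was used. Depth limits the intronic values most, with a median interval half-width of 0.73 on the log2 scale.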
